A study of Arabidopsis thaliana with 12 samples.

Results

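A set of 49 genes was close to silent at the 1-cell stage and was at moderate to high level in both lineages of the 32-cell embryo of Arabidopsis thaliana ecotype Columbia-0. The genes were chosen by their measured levels: a mean FPKM of at least 10 in both 32E and 32S, and below 1 in both AC and BC, over the 3 libraries of each group. FPKM counts sequenced fragments relative to transcript length and to all mapped fragments of the library. These were 49 of 32399 genes in the files, and 49 of the 7581 genes with a mean of at least 10 in both 32-cell groups. AC and BC were the apical and basal cell left by the first division of the zygote, which the labels call a 2-celled embryo and the paper also a 1-cell embryo. 32E and 32S were the embryo proper and the suspensor of 32-cell embryos. All plants were untreated, of 1 genotype, grown under long days in a greenhouse, and embryos were freed with cell wall enzymes and split by microdissection. Cells, or the groups of cells descended from them, were pooled from several embryos for each sample, and their RNA was amplified. A group mean cannot show whether a transcript came from all cells of a lineage or from some.

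The apical cell gives rise to the embryo proper, in which an outer layer, the protoderm, is set apart from inner cells before the 32-cell stage. The basal cell forms the suspensor, a file of cells that anchors the embryo and passes nutrients to it. The protoderm later bears the cuticle, a barrier of cutin and wax made by fatty acid enzymes, lipid transfer proteins and ABC transporters. Auxin acts in the early embryo through Aux/IAA repressors, which are degraded when auxin is bound by its receptors and which otherwise hold auxin response factors inactive. Type-A response regulators are induced by cytokinin and feed back on its signalling.

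The values that chose the genes were as follows. Of the 294 values of the 49 genes in the 6 libraries of AC and BC, 221 were listed at 0 and 15, in 14 genes, were above 1, with a maximum of 2.94. In the 32-cell libraries 21 of 294 values were below 10, the lowest being 4.69, and 23 genes had every library on its side of the thresholds. A group of 12 genes was listed at 0 in all 6 libraries of the 1-cell stage, 18 were at 0 in 5 of them and 19 in 4 or fewer. The 12 were AT1G71691, ABCG15, ADS1, IAA30, AT5G01870, RGF8, CLE17, AT3G14540, STO, ARR7, AT5G55650 and IAA19. The median of the gene means was 28.4 in 32E and 35.7 in 32S, against 36.5 and 39.4 for the 7532 other genes at 10 or more in both. The means of the 32E and 32S levels were at 100 or more in 7 genes and below 20 in 11. Just inside the thresholds lay AT3G09032, a josephin-like protein gene (10.1 in 32S), AT5G14370, a CCT motif gene (0.98 in BC), and AT3G14540, a terpenoid cyclase gene (10.3 in 32E). Just outside lay PRS, a WUSCHEL-related homeobox gene (9.86 in 32E), ER, the receptor kinase gene ERECTA (1.02 in AC), and AT1G47670 (9.73 in 32S).

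**Figure D1:**
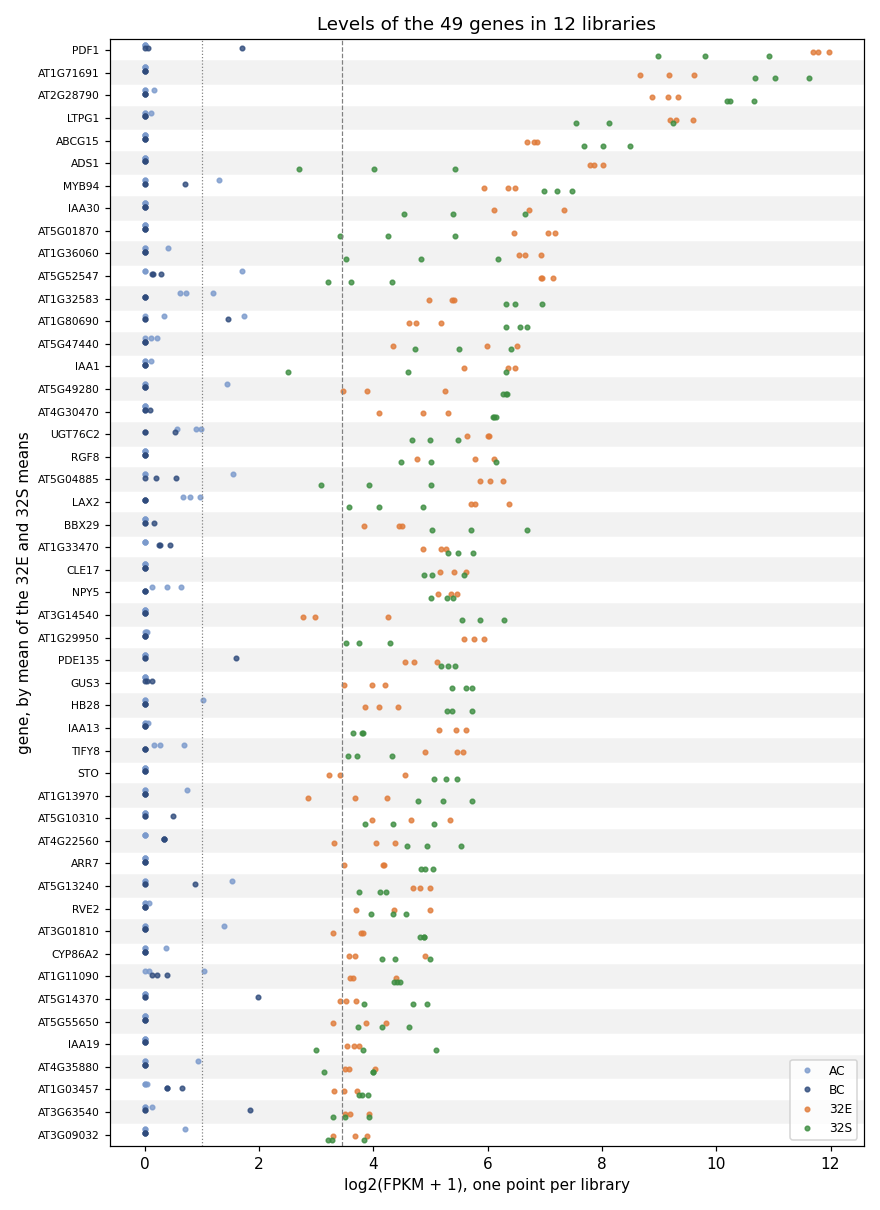
Levels of the 49 genes, as log2(FPKM + 1) on the horizontal axis, with 1 point per library and 3 libraries per group (light blue AC, dark blue BC, orange 32E, green 32S); the dotted and dashed lines mark 1 and 10 FPKM. All 1-cell points lie at or below 2.94 FPKM and all 32-cell points at or above 4.69 FPKM, a gap that follows from how the genes were chosen.

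Between 14122 and 16171 genes were above 0 in the libraries of AC and BC, and 16516 to 19114 in those of 32E and 32S. The FPKM of a library added up to 833418 to 853363 in AC and BC and 884376 to 955228 in 32E and 32S. Every 1-cell library thus had fewer genes above 0 than every 32-cell library. The paper lists the read pairs of each library, but no counts per gene were available. The number of fragments behind a value is therefore unknown and no counting interval is given. The embryo proper genes WOX2, ESR1, LEC2 and MNP were at 0 to 2.15% of their 32E mean in the 32S libraries, while PLT1 was at 36.5% to 50.4%. At the 1-cell stage these genes were not confined to the apical cell. PLT1, WOX2 and LEC2 were at 24.2, 158 and 206 in BC, above 1.52, 113 and 114 in AC, while ESR1 and MNP were higher in AC. Of the suspensor genes, WOX8 was listed at 0 and CEP1 was at 0.01% to 0.07% of the 32S mean in the 32E libraries, HB-3 (WOX9) was at 26.0% to 36.1%, and GA3OX4 was at 0 in all groups. Of 8 endosperm genes, 7 had means below 2 in all groups, and the sucrose carrier gene SUC5 was at 504 in 32S. Of 12 seed coat genes, 10 had means below 1 in all groups. MUM4 was at 8.05 in AC, 26.1 in BC and 22.2 in 32E. STK had a mean of 7.25 in 32S against 17.9 in 32E, and was at 2.52 in AC. Among the egg and synergid markers, 6 in number, EC1.5 alone had a mean above 1 in 32E (1.87), and none did in 32S. The 6 housekeeping genes summed to 3823 to 5867 FPKM in a 32-cell library and 4217 to 4813 in a 1-cell library.

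The 250 bases before the start of each gene in the RefSeq annotation of TAIR10.1 were searched on both strands for 5 short motifs. The promoters shown are those of an epidermal and a homeodomain member with an L1 box, the letters bound by protodermal HD-ZIP IV factors, and of 3 Aux/IAA members with an auxin response element. Capitals mark the L1 box (TAAATGCA or TAAATGTA) or the auxin response element (TGTCTC or TGTCGG), in either direction, and each sequence reads 5′ to 3′ towards the gene. The window of MYB94 was chr3:17541308-17541557 (minus strand) and that of HB28 was chr3:18915764-18916013 (plus strand). The windows of the Aux/IAA genes were chr4:8360746-8360995 (plus strand) for IAA1, chr2:14116090-14116339 (minus strand) for IAA13 and chr3:5263751-5264000 (plus strand) for IAA19.
MYB94: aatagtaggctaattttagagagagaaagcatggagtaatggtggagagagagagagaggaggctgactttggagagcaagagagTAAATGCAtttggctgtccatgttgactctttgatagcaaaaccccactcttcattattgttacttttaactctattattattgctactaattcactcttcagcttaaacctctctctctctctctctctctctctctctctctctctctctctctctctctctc
HB28: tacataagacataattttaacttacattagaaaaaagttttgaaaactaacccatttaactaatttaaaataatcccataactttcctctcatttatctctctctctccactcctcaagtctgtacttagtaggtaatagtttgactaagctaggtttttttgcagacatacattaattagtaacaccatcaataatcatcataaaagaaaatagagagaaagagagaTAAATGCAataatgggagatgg
IAA1: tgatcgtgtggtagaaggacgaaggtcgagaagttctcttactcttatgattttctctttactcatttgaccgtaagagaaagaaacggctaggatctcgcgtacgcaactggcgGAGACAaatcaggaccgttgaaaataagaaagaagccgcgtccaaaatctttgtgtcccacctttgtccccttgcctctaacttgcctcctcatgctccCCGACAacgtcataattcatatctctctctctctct
IAA13: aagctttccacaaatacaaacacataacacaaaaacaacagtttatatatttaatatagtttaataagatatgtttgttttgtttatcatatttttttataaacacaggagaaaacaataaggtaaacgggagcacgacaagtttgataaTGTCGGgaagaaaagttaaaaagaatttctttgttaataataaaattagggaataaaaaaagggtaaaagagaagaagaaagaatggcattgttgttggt
IAA19: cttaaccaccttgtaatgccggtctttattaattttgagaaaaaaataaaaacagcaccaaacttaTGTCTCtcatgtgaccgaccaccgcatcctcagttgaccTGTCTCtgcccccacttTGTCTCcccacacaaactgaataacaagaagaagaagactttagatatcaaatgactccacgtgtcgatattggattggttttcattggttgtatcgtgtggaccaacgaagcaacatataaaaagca

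The L1 box of MYB94 began 165 bases before the start and that of HB28 22 bases before it. IAA19 held 3 copies of TGTCTC, which began 184, 145 and 128 bases before the start. IAA1 held both forms of the auxin response element, each in reverse. Over the 49 genes, 5 promoters (10.2%) held an L1 box, against 4.3% of the 7472 other protein-coding genes at 10 or more in both 32-cell groups and 4.5% of all 26712 promoters searched. The other L1 boxes were in AT1G71691, AT1G80690 and GUS3, and none was in the window of PDF1. An auxin response element was in 9 of the 49 promoters (18.4%), against 13.8% and 14.6%. By form, TGTCTC was in 10.2% against 9.6% and 10.9%, and TGTCGG in 10.2% against 4.7% and 4.2%. The G-box CACGTG was in 4 (8.2% against 7.9% and 6.6%), the evening element AAAATATCT in 1 (2.0% against 2.4% and 2.4%) and the TATA box TATAAA in 20 (40.8% against 44.7% and 47.7%). These shares are descriptions with no test, and a match does not show that a factor binds there.

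The 49 genes encoded proteins with a median of 274 residues, against 341 for the other genes at 10 or more in both 32-cell groups and 354 for all protein-coding genes. Their lengths ran from 99 residues in CLE17 to 921 in AT3G01810. The median number of exons was 3 against 6 in the other genes at this level and 4 in all, and 26 of the 49 had 3 exons or fewer (53.1% against 28.3% and 47.5%). By keywords in the RefSeq product names, written once the genes were known, 10 of 49 concerned transcription or DNA binding (20.4%, against 4.5% of the other genes at this level), 5 auxin (10.2% against 0.2%) and 5 lipids, wax or cuticle (10.2% against 1.0%). Ribosomal protein genes were 0 of 49 and 4.5% of the others. The keywords followed names of the 49 genes and missed others, such as WRKY DNA-binding proteins. The shares of the other genes may therefore be too low, and the gaps were not tested. Chromosomes 1 to 5 held 14, 6, 9, 7 and 13 of the genes.

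The levels of 32E and 32S were compared next. The choice of genes set a floor of 10 in both groups and not which was higher. The difference was tested with limma over 17060 genes. A call needed an adjusted p under 0.01 and at least 2-fold on the log2(FPKM + 1) scale. The spread was estimated over all 4 groups. The choice held the 49 genes near 0 in AC and BC, so their p-values depend in part on it. With 32E and 32S alone, the limma adjusted p of AT1G71691 went from 2.38e-05 to 0.00119 and that of AT1G80690 from 0.0082 to 0.000152. That model called 9 genes higher in 32E and 13 higher in 32S. In bulk samples such as these, fewer cells of a type and less RNA per cell cannot be told apart. All 49 genes were tested. Of these, 10 (20.4%) were higher in 32E and 15 (30.6%) higher in 32S, and 24 had no call. Among all genes tested 23.8% were higher in 32E and 22.6% in 32S, and among the 7532 other genes at 10 or more in both 19.2% and 20.6% were. The 20.4% was thus near the background and the 30.6% above it, with no test of that gap. The p-values of the 49 genes depend in part on the choice, so these shares are not on equal terms. Without the filter on low values 12 were higher in 32S. No background share was computed for that setting or for the model of 32E and 32S alone. The median log2 fold change of 32E over 32S was -0.31 in the 49 genes, -0.05 in the other genes at this level and 0.05 in all genes tested, and the median size was 1.23 against 0.84 in the other genes at this level. The same test called 13.1% of all genes higher in 32E than in AC and 25.3% higher in 32S than in BC. Both contrasts had chosen the 49 genes, so no call is read for them.

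**Figure D2:**
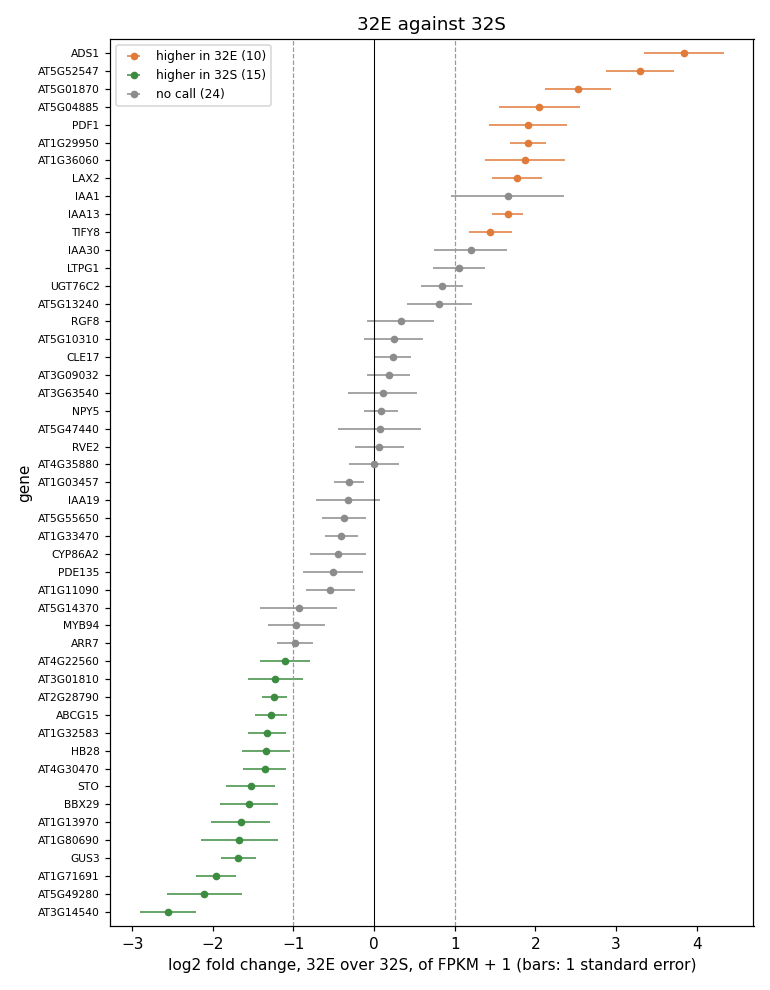
Log2 fold change of 32E over 32S on the scale of FPKM + 1, by gene, with bars of 1 standard error from limma (n = 3 libraries per group); orange marks the 10 genes higher in 32E, green the 15 higher in 32S and grey the 24 with no call. ADS1 has the highest value at 3.84 and AT3G14540 the lowest at -2.56.

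PDF1 (AT2G42840), a proline-rich cell wall protein gene of the protoderm, had the highest mean over 32E and 32S. It was at 3514, 4033 and 3297 FPKM in the 32E libraries 1 to 3, 503, 1941 and 897 in the 32S libraries, and at 0 in 4 of the 6 libraries of AC and BC. All 32E values of PDF1 lay above all 32S values. Its log2 fold change was 1.91 (SE 0.48, adjusted p = 0.0041, limma). This call was lost without any 1 library other than 32S replicate 2, with a log2 fold change of 1.45 to 1.98 and an adjusted p of 0.0111 to 0.0171, and without 32S replicate 2 it was 2.42 (adjusted p = 0.000541).

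LTPG1 (AT1G27950), which encodes a lipid transfer protein anchored to the plasma membrane that takes part in wax export, was at 581, 775 and 632 FPKM in 32E and 187, 605 and 278 in 32S. The groups overlapped because 32S replicate 2 lay above 32E replicate 1. It had no call (log2 fold change 1.06, SE 0.32, adjusted p = 0.0127), and without 32S replicate 2 it was called higher in 32E (1.53, adjusted p = 4.37e-05). The same order of the 32S libraries, with replicate 2 highest and replicate 1 lowest, held for the desaturase gene ADS1 (AT1G06080), which encodes a delta 9 desaturase of fatty acids. ADS1 was at 231, 260 and 220 FPKM in 32E and at 5.49, 42.2 and 15.2 in 32S, and at 0 in all libraries of AC and BC. Its 32S mean was 8.85% of its 32E mean, the lowest share among the 49, and its log2 fold change was 3.84 (SE 0.50, adjusted p = 2.86e-05). AT5G01870, whose product belongs to the lipid transfer and seed albumin superfamily, was at 87.5, 133 and 143 FPKM in 32E and 9.64, 42.4 and 18.22 in 32S, with no overlap (log2 fold change 2.53, SE 0.41, adjusted p = 0.000172).

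Of other genes, AT1G71691, ABCG15 and AT2G28790 were of high level and higher in the suspensor, while MYB94 and CYP86A2 had no call. AT1G71691, a GDSL-like lipase gene of the enzyme family that includes cutin synthases, was at 406, 782 and 578 FPKM in 32E, 1631, 3165 and 2095 in 32S and 0 in all 6 libraries of AC and BC. The groups did not overlap, and the log2 fold change was -1.96 (SE 0.25, adjusted p = 2.38e-05). ABCG15 (AT3G21090), a transporter gene of the ABC-2 type, was at 111, 116 and 102 in 32E and 204, 360 and 258 in 32S, again with no overlap (-1.28, SE 0.20, adjusted p = 0.000123). AT2G28790, of the thaumatin superfamily, stood at 562 ± 88.8 (SD, n = 3) in 32E and 1329 ± 250.1 in 32S (log2 fold change -1.24, SE 0.16, adjusted p = 2.15e-05). MYB94 (AT3G47600), which encodes an activator of wax synthesis genes, was at 88.7, 60.3 and 80.9 in 32E and 126, 177 and 147 in 32S. Its groups did not overlap, but it had no call (-0.96, SE 0.35, adjusted p = 0.0303). CYP86A2 (AT4G00360), a cytochrome P450 gene of cutin monomer synthesis, was at 11.8, 28.9 and 10.9 in 32E and 16.7, 31.0 and 19.8 in 32S, which overlapped (adjusted p = 0.27).

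Of the other genes of the pathway, 32 cuticle and wax genes were listed, of which LTPG1 and CYP86A2 were members, 13 were at 10 or more in both 32-cell groups and 13 were below 1 in both AC and BC. Of 24 tested, 9 were higher in 32E, 1 was higher in 32S and 14 had no call, with a median log2 fold change of 0.59 against 0.05 in all genes tested. Of the 22 tested genes of the list that were not members, 10 were higher in 32E than in AC, 11 higher in 32S than in BC, and 6 were both. LACS2, an acyl-CoA synthetase gene of cutin synthesis, was at 0 in AC and BC and missed the choice by its 32S mean, at 73.0 in 32E and 3.08 in 32S. Of 22 epidermal regulators, PDF1 and MYB94 were members, and of 15 tested 6 were higher in 32E and 2 in 32S. ATML1, the HD-ZIP IV gene of protoderm identity, was already at 62.3 in AC and 72.9 in BC, and was at 95.2 in 32E and 21.9 in 32S.

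Genes of auxin response and transport formed the next group. Of 29 Aux/IAA genes in the files, a family listed after levels had been seen, 8 were at 10 or more in both 32-cell groups and 4 of these, IAA1, IAA13, IAA19 and IAA30, were members. The other 4, IAA8, IAA9, IAA11 and IAA12, were at 1 or more in AC or BC, and 11 of the 29 were below 1 in every group. IAA8 was at 95.5 FPKM in AC and 135 in BC, and IAA12 (BODENLOS) at 23.8 in AC and 0.467 in BC. IAA18 and IAA26 were at 193 and 36.9 in 32E and at 0 in 32S.

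IAA13 (AT2G33310), a close relative of IAA12, was at 34.6, 42.6 and 48.6 FPKM in 32E and 12.9, 13.1 and 11.5 in 32S. The groups were well apart, and the log2 fold change was 1.65 (SE 0.19, adjusted p = 1.01e-05). IAA30 (AT3G62100), a member of the family that lacks the degradation motif, was at 160, 68.5 and 105 in 32E and 22.2, 100.4 and 41.0 in 32S. IAA1 (AT4G14560) was at 88.0, 47.4 and 80.9 in 32E and 4.69, 79.5 and 23.4 in 32S. In both IAA30 and IAA1, 32S replicate 2 lay within the range of 32E and the other 32S libraries lay below it. Neither had a call (1.196, SE 0.45, adjusted p = 0.0352 for IAA30 and 1.66, SE 0.70, adjusted p = 0.0546 for IAA1). Without 32S replicate 2 both were called higher in 32E, at 1.76 (adjusted p = 0.00101) and 2.58 (adjusted p = 0.00087). IAA19 (AT3G15540) was at 10.7, 11.6 and 12.5 in 32E and at 7.03, 33.4 and 13.1 in 32S, which overlapped (-0.32, SE 0.40, adjusted p = 0.499), and its sign turned without 32S replicate 2 (0.24, adjusted p = 0.393).

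**Figure D3:**
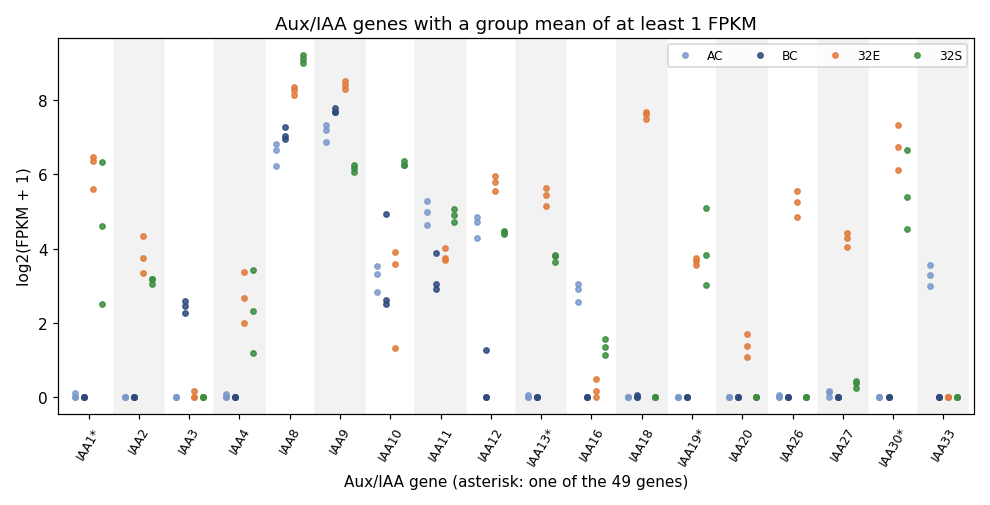
Aux/IAA genes with a group mean of at least 1 FPKM, as log2(FPKM + 1) on the vertical axis, 1 point per library and 3 libraries per group, with an asterisk on the 4 genes of the set. IAA1, IAA13, IAA19 and IAA30 lie near 0 in AC and BC and above it in 32E and 32S, while IAA8 and IAA9 are above 70 FPKM in every group mean.

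LAX2 (AT2G21050), an auxin influx carrier gene, was at 81.9, 53.7 and 51.7 FPKM in 32E and 10.9, 28.3 and 16.3 in 32S, with no overlap (log2 fold change 1.77, SE 0.31, adjusted p = 0.000324). It was the only one of the 4 AUX1 and LAX genes at 10 or more in both 32-cell groups: AUX1 and LAX1 were at 65.9 and 77.4 in 32E and at 0.023 and 0.393 in 32S, and LAX3 was below 1 in all groups. NPY5 (AT4G37590), of a family that acts with PINOID-type kinases in auxin-dependent organ formation, was at 43.2, 34.3 and 39.96 in 32E and 31.1, 41.3 and 38.1 in 32S. These ranges overlapped, and the difference was 0.09 (SE 0.21, adjusted p = 0.731). AT5G47440, annotated as an auxin canalization protein, was at 90.9, 19.2 and 62.6 in 32E and 25.6, 84.1 and 44.5 in 32S, which overlapped, with no call (adjusted p = 0.922).

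Cytokinin was represented by a response gene and an inactivating enzyme. ARR7 (AT1G19050), a type-A response regulator gene, was at 17.3, 10.2 and 17.1 FPKM in 32E, 27.7, 32.0 and 29.1 in 32S and 0 in all libraries of AC and BC. The groups did not overlap and the adjusted p was 0.00201, but the log2 fold change of -0.98 (SE 0.22) was just under 2-fold, so it had no call. Without 32E replicate 1, 32E replicate 3 or 32S replicate 1 it passed, at -1.10, -1.09 and -1.03 (adjusted p = 0.00224, 0.00273 and 0.00541). Of the 10 type-A genes, a family also listed after levels had been seen, only ARR15 was likewise at 10 or more in both 32-cell groups, and it was at 163 in AC and 159 in BC. UGT76C2 (AT5G05860), which encodes a cytokinin N-glucosyltransferase, was at 63.3, 64.1 and 48.6 in 32E and 24.7, 43.5 and 30.7 in 32S, without overlap and without a call (0.84, SE 0.26, adjusted p = 0.0136). Without 32S replicate 2 it was called higher in 32E (1.05, adjusted p = 0.004).

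Of 4 genes of secreted peptides, 3 had no call between the lineages. RGF8 (AT2G03830), of the root meristem growth factor family, was at 67.8, 26.2 and 53.9 FPKM in 32E and 21.4, 70.2 and 31.3 in 32S. CLE17 (AT1G70895), of the CLAVATA3 family, was at 35.2, 41.7 and 48.0 in 32E and 28.6, 46.9 and 31.7 in 32S. AT5G10310, an EPIDERMAL PATTERNING FACTOR-like gene, was at 14.9, 24.3 and 39.5 in 32E and 13.4, 32.4 and 19.4 in 32S. The groups of all 3 overlapped and none had a call (adjusted p = 0.501, 0.368 and 0.587). The fourth, AT1G32583, annotated as a tapetum determinant protein, was at 30.4, 40.6 and 41.8 in 32E and 78.9, 123 and 88.1 in 32S (log2 fold change -1.33, SE 0.24, adjusted p = 0.000375), with no overlap.

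Regulators of transcription were found on both sides. AT1G36060, of the integrase-type DNA-binding superfamily to which ethylene response factors belong, was at 122, 92.7 and 100.4 FPKM in 32E and 10.5, 71.6 and 27.5 in 32S. The groups did not overlap and it was called higher in 32E (1.87, SE 0.50, adjusted p = 0.0056), but leaving out any 1 library other than 32S replicate 2 ended the call (1.21 to 1.96, adjusted p = 0.0121 to 0.0221), and without 32S replicate 2 it was 2.54 (adjusted p = 6.26e-05). AT1G29950, a basic helix-loop-helix gene, was at 53.1, 46.9 and 60.5 in 32E and 10.5, 18.5 and 12.4 in 32S (1.91, SE 0.23, adjusted p = 1.24e-05), with no overlap. TIFY8 (AT4G32570), of the TIFY family that also holds the jasmonate repressors, was at 39.5 ± 9.22 (SD, n = 3) in 32E and 14.0 ± 4.48 in 32S (1.44, SE 0.27, adjusted p = 0.000513).

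A pair of B-box zinc finger genes was higher in the suspensor. STO (AT1G06040), a regulator of light responses also called BBX24, was at 9.66, 22.6 and 8.40 FPKM in 32E and 32.4, 43.3 and 37.5 in 32S, with no overlap (log2 fold change -1.53, SE 0.31, adjusted p = 0.000875). BBX29 (AT5G54470) was at 13.4, 20.8 and 21.7 in 32E and 31.7, 103 and 51.2 in 32S, also with no overlap (-1.55, SE 0.36, adjusted p = 0.00241). Its call was lost without 32E replicate 1 (-1.34, adjusted p = 0.0128). Of 20 light signalling genes, STO was the only member, and of 13 tested 1 was higher in 32E and 6 in 32S. HY5, a bZIP gene that promotes light responses, was already at 12.6 in AC and 13.0 in BC, and was at 24.8 in 32E and 52.7 in 32S. Of 12 tested light genes that were not members, 1 was higher in 32E than in AC and 2 were higher in 32S than in BC.

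HB28 (AT3G50890), a zinc finger homeodomain gene, was at 16.2, 20.6 and 13.4 FPKM in 32E and 38.2, 52.2 and 40.5 in 32S, which did not overlap (log2 fold change -1.34, SE 0.29, adjusted p = 0.00166). All 16 genes of this family were below 1 in both AC and BC, and HB28 was the only one at 10 or more in both 32-cell groups. Of 7 tested, 4 were higher in 32E and 2 in 32S. All 6 tested genes that were not members were higher in 32E than in AC, and 2 were higher in 32S than in BC. HB30 was at 25.7 in 32E and 0.63 in 32S, and HB27 at 6.24 and 41.7.

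RVE2 (AT5G37260), a MYB-like gene related to the clock genes CCA1 and LHY, was at 31.0, 19.7 and 11.96 FPKM in 32E and 14.5, 22.8 and 19.3 in 32S, with overlap and no call (adjusted p = 0.862). It was the only member among 17 clock genes, of which 15 were at 1 or more in AC or BC, and of 16 tested 1 was higher in each lineage. AT5G13240, annotated as a transcription regulator, was at 27.7 ± 3.03 in 32E and 15.6 ± 2.81 (SD, n = 3) in 32S, with no overlap and no call (adjusted p = 0.0984). AT5G14370 had no call either (adjusted p = 0.102), at 10.8 ± 1.16 and 22.6 ± 8.43.

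The enzyme and other genes named by their change were mostly higher in 32S. AT3G14540, a terpenoid cyclase gene, was at 6.94, 18.1 and 5.85 FPKM in 32E and 45.7, 77.3 and 57.4 in 32S, and its 32E mean was 17.1% of its 32S mean (log2 fold change -2.56, SE 0.35, adjusted p = 4.1e-05). AT5G49280, a hydroxyproline-rich glycoprotein gene, was at 10.1, 37.1 and 13.9 in 32E and 79.6, 79.0 and 76.4 in 32S (-2.10, SE 0.46, adjusted p = 0.00166). In these, and in STO, the 32E libraries differed more among themselves than the 32S libraries did in proportion, with 32E replicate 2 highest. GUS3 (AT5G34940), a glucuronidase gene, was at 14.1 ± 3.58 in 32E and 46.7 ± 5.71 (SD, n = 3) in 32S (-1.68, SE 0.22, adjusted p = 2.9e-05). AT1G13970, of a family with a DUF1336 domain, was at 12.01 ± 5.90 and 38.3 ± 12.7 (-1.66, SE 0.37, adjusted p = 0.00174), and its call was lost without both libraries numbered 2 (-1.46, adjusted p = 0.0165). AT1G80690, a gene of the PPPDE thiol peptidase family, was at 23.8, 35.5 and 25.8 in 32E and 103, 78.7 and 93.7 in 32S (-1.67, SE 0.47, adjusted p = 0.0082), and leaving out any 1 of these 6 libraries ended its call (-1.84 to -1.56, adjusted p = 0.0134 to 0.0304). AT4G30470, of the Rossmann-fold superfamily, was at 27.6 ± 11.2 and 68.4 ± 1.48 (-1.36, SE 0.27, adjusted p = 0.000805).

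The 2 smallest called differences were those of AT3G01810 (-1.23, SE 0.34, adjusted p = 0.00702) and AT4G22560, at 14.8 ± 5.56 (SD, n = 3) in 32E and 32.7 ± 11.6 in 32S (-1.11, SE 0.30, adjusted p = 0.00691). The first was lost without any 1 library of 32E or 32S (-1.32 to -1.06, adjusted p = 0.0132 to 0.0313), and the second without 32E replicate 2 or 3 or 32S replicate 2 or 3 (-1.17 to -0.80, adjusted p = 0.014 to 0.0315). Higher in 32E were AT5G52547, uncharacterized, at 140, 121 and 124 FPKM against 8.26, 19.0 and 11.2 (3.30, SE 0.43, adjusted p = 2.75e-05), and AT5G04885, a glycosyl hydrolase gene, at 64.6, 57.3 and 76.1 against 7.46, 31.4 and 14.2 (2.05, SE 0.50, adjusted p = 0.00329). Neither gene's groups overlapped. The call of AT5G04885 was lost without 32E replicate 1 or 3 or 32S replicate 1 or 3 (1.59 to 2.06, adjusted p = 0.0107 to 0.0145).

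The remaining 8 genes had no call. PDE135, a nucleobase permease gene, was at 27.3 ± 5.84 FPKM (SD, n = 3) in 32E and 38.8 ± 3.40 in 32S. The RNA-binding protein genes AT1G33470 and AT1G03457 were at 33.6 ± 4.89 and 10.4 ± 1.59 in 32E and at 44.9 ± 7.07 and 13.1 ± 0.742 in 32S. In none of these 3 did the groups overlap, with an adjusted p of 0.253, 0.0949 and 0.158. The other 5, AT1G11090, AT5G55650, AT4G35880, AT3G63540 and AT3G09032, had overlapping groups, and their means lay between 10.1 and 20.5 in both groups.

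The order of the 32S libraries was shared by most of the 49 genes. In 41 of them replicate 2 was the highest 32S library, against 42.1% of the 7532 other genes at 10 or more in both. Replicate 1 was the lowest in 41, for which no share of the other genes was computed. The median ratio of 32S replicate 1 to the mean of replicates 2 and 3 was 0.686 in the 49 genes and 1.015 in the others. The median ratio of 32S replicate 2 to the mean of replicates 1 and 3 was 1.56 in the 49 genes and 0.96 in the others. Summed over the 49 genes, FPKM was 4929, 9783 and 6229 in 32S replicates 1 to 3 and 6985, 8060 and 7118 in the 32E replicates. In the 10 genes higher in 32E the median ratio of 32S replicate 2 to replicate 1 was 3.22, against 1.16 in the 1447 other genes of this level and call. In the 15 genes higher in 32S it was 1.39, and there 32E replicate 2 stood at a median of 1.39 times the mean of the other 32E replicates, against 1.11 in the 1555 other such genes.

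RNA of the embryo proper in a suspensor library would raise genes of the first kind, and the levels of genes found in 1 lineage alone were therefore measured. Of 92 genes at 10 or more in 32E, below 1 in 32S and below 1 in AC and BC, the FPKM summed in 32S replicates 1 to 3 to 0.295%, 0.462% and 0.363% of their 32E sum, and 2, 9 and 1 of them were above 1. For the 143 genes selected with a 32S mean below 10 in place of 1, which include these, the shares were 4.16%, 5.90% and 4.64%. WOX2 was at 0, 1.63% and 0.35% of its 32E mean in the 32S replicates, and MNP was at 0 in all 3. ESR1 was at 1.17%, 1.25% and 1.33%, LEC2 at 1.25%, 2.15% and 1.51%, and PLT1 at 36.5%, 50.4% and 39.9%. The lowest 32S mean among the 49 was 8.85% of the 32E mean, in ADS1, whose 32S replicates were at 2.32%, 17.8% and 6.41%, and without replicate 2 its share was 4.36%. STK, which is no member, was at 21.4%, 65.2% and 34.7%, in the same order of libraries. Of 226 genes at 10 or more in 32S and below 1 in the other groups, the sum in 32E replicates 1 to 3 was 0.207%, 0.353% and 0.238% of that in 32S. WOX8 was at 0 in all 3, CEP1 at 0.07%, 0.01% and 0.03% of its 32S mean, and HB-3 at 33.0%, 26.0% and 36.1%. For the 356 genes selected with a 32E mean below 10 in place of 1, the shares were 1.84%, 2.68% and 2.11%. These genes were selected on low means in the other lineage, and the part of such RNA in the order of the libraries was not tested. Without both libraries numbered 2, an alternative chosen after the data were seen, the choice gave 45 genes, 44 of them among the 49. With these libraries left out from the comparison of the 49, 15 were higher in 32E, which included all 10 of the first count, and 11 were higher in 32S.

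**Figure D4:**
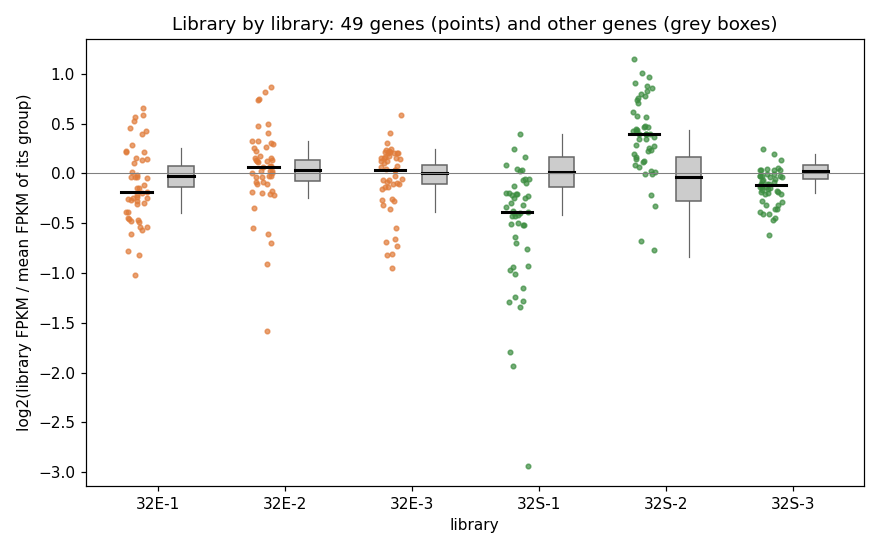
Ratio of each library to the mean of its group, on a log2 axis, for the 49 genes (coloured points, black bar at the median) and for 7532 other genes at 10 or more in both 32-cell groups (grey box from the lower to the upper quartile, line from the 5th to the 95th percentile, black bar at the median). Most of the 49 genes lie above the line in 32S-2 and below it in 32S-1, and the other genes centre near the line in all 6 libraries.

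Reads from overlapping genes cannot be told apart where strand was not kept, and 13 of the 49 genes overlap another annotated gene. For LTPG1, GUS3 and AT1G33470 the overlap was 23 bases or shorter. AT1G71691 shares 506 bases with AT1G71690, which was at 0.447 FPKM in 32E and 4.19 in 32S, and IAA13 shares 1176 bases with AT2G33300, which was at 0 in all groups. TIFY8 shares 428 bases with AT4G32560 (16.4 in 32E and 31.1 in 32S), and AT5G47440 shares 458 bases with AT5G47435 (26.9 and 52.3), both of which were also above 10 in AC and BC, where the member was below 1. AT3G63540 shares 91 bases with AT3G63530 on the same strand (76.9 and 1.18). CYP86A2 shares 782 bases with a long noncoding RNA gene that has no values and 127 with AT4G00370 (33.2 and 23.6). AT1G11090 shares 1172 bases with another such gene and 108 with AT1G11100 (4.06 and 5.54). STO shares 344 bases with AT1G06045, also without values. AT1G32583 shares 102 and 80 bases with microRNA genes, and AT1G13970 shares 70 with AT1G13960 (5.02 and 0).

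The other lists held no member. Of 50 photosynthesis genes, 29 were below 1 in AC and BC but 3 were at 10 or more in both 32-cell groups, and of 34 tested 2 were higher in 32E and 19 in 32S. For 22 aquaporin genes 15 were below 1 at the 1-cell stage and 2 were at 10 or more in both, for 22 xyloglucan endotransglucosylase genes 11 and 4, for 12 fasciclin-like arabinogalactan protein genes 8 and 2, for 8 lipid transfer protein genes 5 and 1, for 7 GASA peptide genes 5 and 0, and for 5 genes of the SAC51 and LHW groups 2 and 1. Of 19 wound, touch and heat genes, 8 were at 10 or more in both 32-cell groups and none of these 8 was below 1 in both AC and BC. Of 16 tested, 2 were higher in each lineage, 1 was higher in 32E than in AC and 9 were higher in 32S than in BC.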

How the data were processed

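RNA-seq of 12 libraries, 3 for each of AC, BC, 32E and 32S, was analysed, grouped by the tissue in their labels. The authors extracted polyadenylated RNA from pooled, microdissected cells or their descendants, amplified it by a SMART protocol, trimmed reads with Cutadapt and mapped them with Bowtie 2 to TAIR10. The deposited FPKM values were computed by the authors with RSEM; the submitters' processing notes name RSEM and TopHat2 2.1.1. The labels name 2 library kits without saying which sample had which. Strand was not kept. The labels do not say that samples came from separate plants, while the paper calls them independent biological replicates.

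The 49 genes and all lists were chosen with earlier results of these data known, and levels of some listed genes had been seen in tables of the study. The families of Aux/IAA, AUX1 and LAX, and type-A response regulators and the product keywords were added after values were seen. The 19 lists held 293 genes after 13 were left out whose identifier and symbol did not match in RefSeq.

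log2(FPKM + 1) was fitted with limma 3.58.1 in R 4.3.3, jointly for the 4 groups and with eBayes set to a mean trend. The 17060 genes tested exceeded 1 FPKM in 3 or more libraries, and p-values were adjusted by Benjamini-Hochberg. The pseudocount of 1 understates changes of low genes. The study's count model was not used because the files hold no counts. The procedure was tested on simulated data. Named genes were the members in a list, the 12 with the highest 32-cell mean, the 8 with the largest called change in each direction whose groups did not overlap, those with a regulator's product name and the 3 nearest to the threshold on each side. This rule named 28 members, and the other 21 were named after their values were seen so that every member is accounted for. Positions, products and promoters came from RefSeq's TAIR10.1, in which 31912 of the 32399 identifiers were found. Alternatives were other means, thresholds, scalings, pseudocounts and filters, a model of 32E and 32S alone, the replicate number as a block, and each library left out.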

Additional observations from a re-analysis of the deposited data

How the results depend on the processing

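The count of 49 genes became 23 with every library required on its side, 23 with thresholds of 20 and 1 and 133 with thresholds of 5 and 1, and stayed within 1.5 times of 49 with a median (67), a geometric mean (55), TPM (56), median-ratio scaling (53) and thresholds of 10 and 2 (67) or 10 and 0.5 (36). Leaving out each of the 12 libraries gave 45 to 57 genes. A pseudocount of 0.1 lowered the genes higher in 32E from 10 to 5 and those higher in 32S from 15 to 8, and the cause was not tested. Leaving out each 32E and 32S library gave 7 to 14 genes higher in 32E and 12 to 14 higher in 32S. Of the 25 calls, 18 were kept in all 6 of these and 13 in all 15 alternatives, and no called gene changed sign. The paper does not state whether 32E and 32S libraries with the same number share embryos. Deviations of such libraries from their group means correlated at 0.066, -0.08 and -0.125, which cannot settle pairing with 3 libraries per group. With the replicate block 9 genes were higher in 32E and 13 in 32S. The model of 32E and 32S alone gave the same counts, but AT1G13970 was lost only with the block and BBX29 only without it. The sign turned only in genes with no call. With median-ratio scaling AT5G47440 was at -0.01 and RVE2 at -0.009, AT4G35880 was at 0.001 with a pseudocount of 0.1 and 0.046 with TPM, and IAA19 was at 0.24 without both libraries numbered 2. With single libraries left out the log2 fold change ran from -0.39 to 0.71 in AT5G47440, -0.26 to 0.40 in RVE2, -0.28 to 0.14 in AT4G35880, -0.035 to 0.278 in AT3G63540, -0.10 to 0.58 in AT5G10310, -0.034 to 0.801 in RGF8, -0.026 to 0.178 in NPY5 and -0.81 to 0.24 in IAA19. Counts per gene are unknown, so a gene listed at 0 in AC or BC may have been present below detection, and 3 libraries per group limit all calls.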
